A study of Mus musculus with 11 samples.

Results

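Cells that move over a wound bed push out protrusions built from actin, and the genes described here encode proteins of that leading edge. Fascin (*Fscn1*) bundles actin filaments inside filopodia. Podoplanin (*Pdpn*) is a mucin-type membrane protein whose short cytoplasmic tail binds ezrin and moesin and whose membrane partners include CD44. Ezrin (*Ezr*), moesin (*Msn*) and radixin (*Rdx*), the ERM proteins, link cortical actin to the plasma membrane, and *Cd44* encodes the main hyaluronan receptor, which also binds ERM proteins. These 6 genes were taken as a named list, by symbol, and each had a single entry among the 24421 genes of the count tables. All 6 passed the filter on low counts.

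The study asked how keratinocytes at a skin wound front depend on the transcription factor GRHL3. RNA-seq of sorted epidermal keratinocytes gave 7 libraries of C57BL/6 mice, 2 WT unwounded, 2 WT wounded, 1 GRHL3 KO unwounded and 2 GRHL3 KO wounded. ATAC-seq, which marks open chromatin, gave 1 list of accessible regions for each of the same 4 conditions. Per the study's methods, the mice were 8 weeks old, of both sexes and of C57BL/6J background, and the KO was a deletion of floxed *Grhl3* by Cre under the *Krt14* promoter, which is active in keratinocytes. The WT littermates are described there as carrying *Krt14*-Cre as well. Wounds were 4 mm punches in back skin. Wounded samples came from a 1 mm margin at day 3 and unwounded samples from distant skin, and cells were sorted for the integrin CD49F after removal of immune, endothelial and blood lineage cells. The ATAC-seq samples held 100000 cells each, from wounds pooled over mice.

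Library depth, as the sum of all gene counts, was 15488699 and 16807451 for WT unwounded, 16653948 and 15418631 for WT wounded, 13497283 for KO unwounded, and 15223569 and 14279568 for KO wounded. Values are given as CPM, gene counts scaled to a common depth, without the TMM factors that the fits and the correlations between members use. At these depths a gene with no count could still be present at up to 0.179 to 0.222 CPM, the level of 3 counts, and such limits and all intervals given here cover counting error only. Replicates differed by far more than sampling noise (chi-square per degree of freedom of 29.4 for the WT unwounded pair, 40.2 for the WT wounded pair and 35.2 for the KO wounded pair). Nothing in the labels says that replicates came from separate mice, so p-values measure only the spread between these libraries.

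The targeted gene, *Grhl3*, had 122 and 83.2 CPM in WT unwounded, 110 and 90.0 CPM in WT wounded, 76.2 CPM in KO unwounded, and 116 and 104 CPM in KO wounded. The KO wounded values lay within or above the WT wounded range. The counts are per gene and are not split into the deleted part and the rest. These values therefore do not check the label, and KO below means the label. The KO unwounded library also stood apart at sex-linked genes. It had 1101 CPM of *Xist*, against at most 1.92 CPM in each other library, and 0 counts over 4 Y-linked genes, against 2580 to 3589 elsewhere. *Msn* lies on the X chromosome. The part of this difference in the results that use the KO unwounded library was not tested, and the members' log2 differences and most of their correlations are given with and without that library where a fit without it can be made.

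Per kilobase of exon, the scale on which genes can be compared, the order of levels over the 7 libraries was *Ezr*, *Cd44*, *Msn*, *Rdx*, *Fscn1* and *Pdpn*. Mean CPM per kilobase was 309.7 ± 46.0 for *Ezr*, 172.9 ± 30.6 for *Cd44*, 103.5 ± 22.9 for *Msn*, 56.5 ± 5.91 for *Rdx*, 32.7 ± 14.5 for *Fscn1* and 7.45 ± 9.49 for *Pdpn* (SD, n = 7). *Cd44* and *Msn* overlapped in range, although *Cd44* was the higher of the pair in each library. *Msn* and *Rdx* came closest in the KO unwounded library, at 68.7 and 66.2 CPM per kilobase. *Fscn1* stayed below *Rdx* in every library, and the mean of *Pdpn* was smaller than its SD.

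The genes differed in how far they varied relative to their level. The highest library exceeded the lowest 222-fold for *Pdpn* and 3.84-fold for *Fscn1*. The same ratio was 1.99 for *Msn*, 1.79 for *Cd44*, 1.63 for *Ezr* and 1.30 for *Rdx*. Without the KO unwounded library, where *Pdpn* had 3 counts, the ratios were 18.2 for *Pdpn*, 2.36 for *Fscn1*, 1.65 for *Msn*, 1.33 for *Cd44*, 1.5 for *Ezr* and 1.24 for *Rdx*. The protrusion genes *Fscn1* and *Pdpn* thus varied most in proportion, while in CPM per kilobase the SD given above was largest for *Ezr*.

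**Figure D1:**
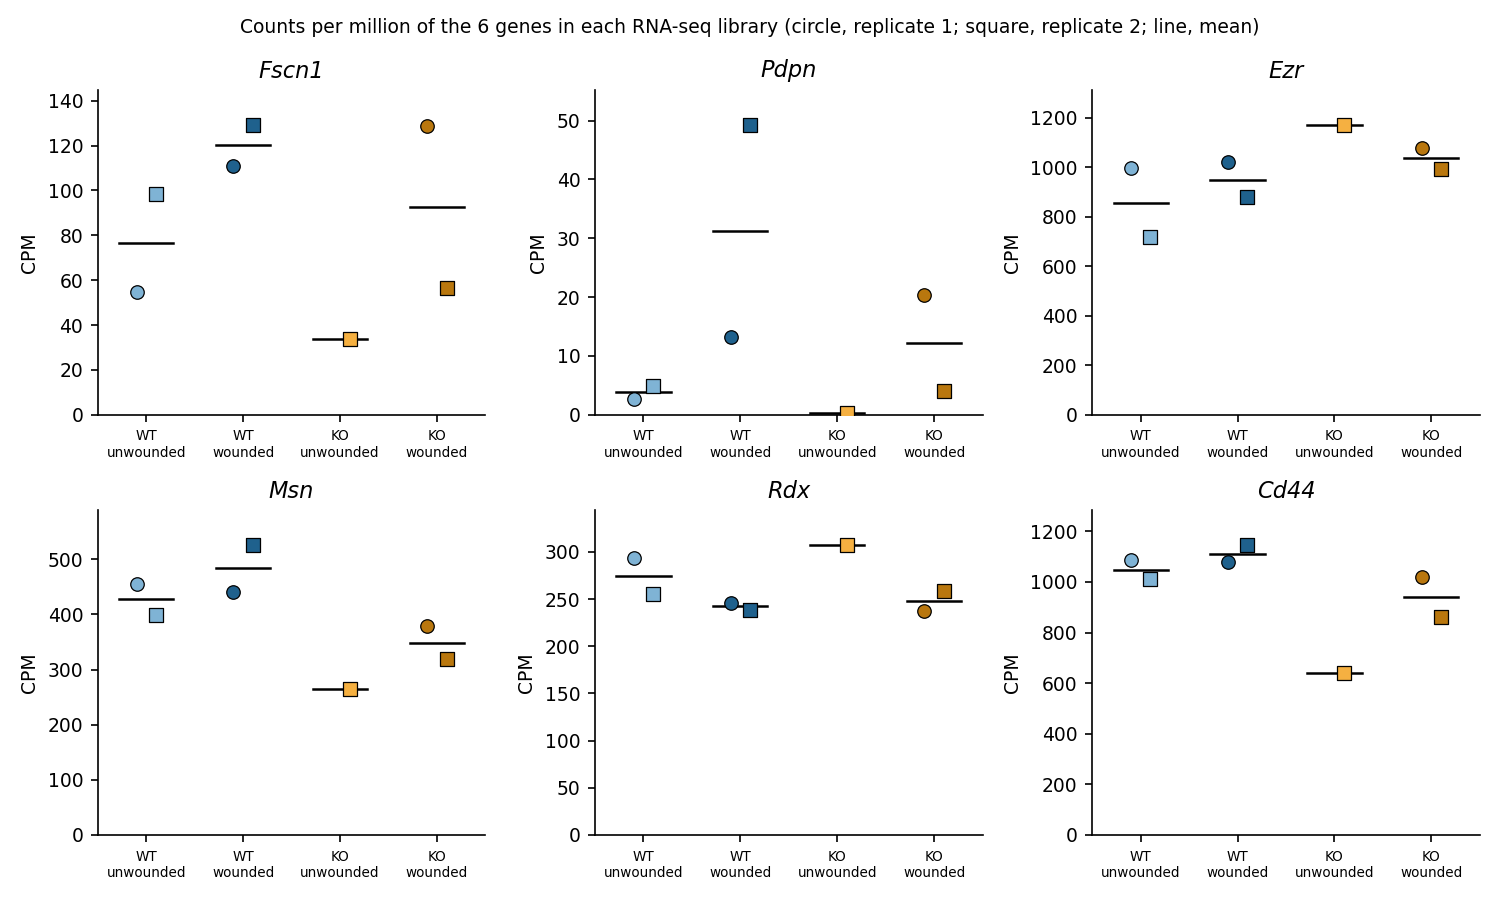
CPM (vertical axes, linear, from 0) of the 6 genes in each RNA-seq library, by group; circles are replicate 1, squares are replicate 2 and lines are group means, with a single library in KO unwounded. *Pdpn* runs from 0.222 CPM in KO unwounded to 49.3 CPM in a WT wounded library, whereas *Rdx* stays between 237 and 307 CPM.

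*Fscn1* had 54.8 and 98.5 CPM in WT unwounded, 111 and 129 CPM in WT wounded, 33.7 CPM in KO unwounded, and 129 and 56.4 CPM in KO wounded. Both WT wounded libraries lay above both WT unwounded libraries, and the KO wounded replicates fell on either side, replicate 1 beside the WT wounded libraries and replicate 2 beside the lower WT unwounded library. *Pdpn* had 2.71 and 4.94 CPM in WT unwounded, 13.2 and 49.3 CPM in WT wounded, 0.222 CPM in KO unwounded, and 20.4 and 4.06 CPM in KO wounded. Again the WT groups did not overlap, and KO wounded replicate 2 lay inside the WT unwounded range. In bulk libraries, fewer cells that express a gene and less of its RNA per cell cannot be told apart.

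To ask how wounding bears on these genes in WT skin, the WT wounded and WT unwounded libraries were compared. None of the 6 genes passed edgeR's quasi-likelihood test at an adjusted p of 0.05, beside 4 of 14045 genes tested (0.0285%), all 4 higher in wounded. These were *Mmp9*, *Pmepa1*, *Xist* and *Cald1*, of which the last encodes caldesmon, an actin-binding protein; they are named because they are few, after their values were seen. Without a filter on low counts 96 of 16280 genes passed, *Pdpn* among them, and with at least 10 counts in every library 0 of 11127. The count also moved with the library left out. In the main fit 680 genes had an unadjusted P under 0.05, among them *Pdpn*, and DESeq2 passed 24 genes and no member. The log2 fold change of *Pdpn* was 3.05 (SE 0.67, n = 2 per group, adjusted p = 0.203), the 24th smallest P of all genes tested. For *Fscn1* it was 0.68 (SE 0.32, adjusted p = 0.984), with 0.32 without WT unwounded replicate 1 and 1.15 without WT unwounded replicate 2. Wounded lay above unwounded without overlap for *Fscn1* and *Pdpn*, 2 of 6 genes, against 15.2% of all genes tested.

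The call on *Pdpn* turned on which libraries and filter were used. Without WT wounded replicate 1, the lower of the wounded pair, its log2 fold change was 3.71 (adjusted p = 0.00591), and without a filter on low counts it was 3.06 (adjusted p = 6.84e-12). Over 9 alternatives the adjusted p of *Pdpn* ran from 6.84e-12 to 0.689, and its log2 fold change from 1.79 to 3.71. For the other 4 genes the log2 differences between the WT groups were 0.17 (SE 0.17) for *Ezr*, 0.20 (SE 0.17) for *Msn*, -0.15 (SE 0.16) for *Rdx* and 0.11 (SE 0.15) for *Cd44*, with adjusted p of 0.998 to 1. Leaving out each library gave -0.056 to 0.44, 0.053 to 0.33, -0.26 to -0.038 and 0.049 to 0.18 in the same order. *Rdx* was the only one of these whose WT groups did not overlap, with wounded below, a split whose share of all genes is not given here.

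The genotype comparison at the wound front, KO wounded against WT wounded, asks what the loss of GRHL3 changes there. No gene passed (0 of 14045, 0%) with edgeR. Without a filter on low counts 51 of 16280 genes passed, none of them a member, and the count also moved when a WT wounded library was left out. In the main fit 567 genes had an unadjusted P under 0.05, among them *Msn*, and DESeq2 passed 3 genes and no member. The log2 difference was -0.34 (SE 0.32) for *Fscn1* and -1.30 (SE 0.62) for *Pdpn*, with an adjusted p of 1 for both. The KO wounded and WT wounded libraries overlapped for both genes. Without KO wounded replicate 2 the log2 difference of *Fscn1* was 0.16, in the other direction, and without KO wounded replicate 1 it was -1.10. That of *Pdpn* ran from -0.039 without WT wounded replicate 2 to -2.95 without KO wounded replicate 1. The size of both differences thus rested on single libraries.

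*Msn* had 456 and 398 CPM in WT unwounded, 441 and 526 CPM in WT wounded, 264 CPM in KO unwounded, and 379 and 318 CPM in KO wounded. All 3 KO libraries lay below all 4 WT libraries on this scale, a split whose share of all genes is not given here. It did not hold with TMM factors, which put *Msn* at 394.5 CPM in KO wounded replicate 1 and at 387.5 CPM in WT unwounded replicate 2. In the wounded libraries the log2 difference, KO against WT, was -0.45 (SE 0.17, adjusted p = 1), with an unadjusted P of 0.0193. *Cd44* had 1085 and 1010 CPM in WT unwounded, 1079 and 1146 CPM in WT wounded, 642 CPM in KO unwounded, and 1019 and 863 CPM in KO wounded. The wounded groups did not overlap for *Cd44* either, at a log2 difference of -0.22 (SE 0.15). Thus 2 of 6 genes, *Msn* and *Cd44*, were lower in KO wounded without overlap, against 17.2% of all genes tested. *Ezr* and *Rdx* overlapped, at log2 differences of 0.15 (SE 0.17) and 0.051 (SE 0.16). With TMM factors *Msn* and *Cd44* still did not overlap, and *Rdx* no longer overlapped, with KO above. The shares of all genes that split in these ways with TMM factors are not given here. Leaving out each library gave -0.61 to -0.29 for *Msn*, -0.37 to -0.066 for *Cd44*, 0.062 to 0.25 for *Ezr* and 0.027 to 0.087 for *Rdx*.

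All 4 wounded libraries were then set against all 3 unwounded ones, with genotype in the model. Again no member passed edgeR's test, beside 5 genes in all (0.0356%), 929 at an unadjusted P under 0.05 and 126 by DESeq2. Without a filter on low counts 305 of 16280 genes passed, *Pdpn* and *Fscn1* among them. Leaving out single libraries gave from 0 of 13902 genes, without WT unwounded replicate 1, to 119 of 13814, without WT wounded replicate 1. In the main fit the log2 fold change was 3.60 (SE 0.66, adjusted p = 0.0683) for *Pdpn* and 0.97 (SE 0.29, adjusted p = 0.331) for *Fscn1*. DESeq2 passed both, at 3.91 (adjusted p = 0.0115) and 0.98 (adjusted p = 0.0372). Over all alternatives the adjusted p ran from 4.13e-23 to 0.499 for *Pdpn* and from 2.03e-06 to 0.991 for *Fscn1*. Without the KO unwounded library the values were 3.06 and 0.68, and with genes of chromosomes X and Y left out they were 3.60 and 0.97. No member had all wounded libraries above all unwounded ones (0 of 6, against 2.74% of genes), since KO wounded replicate 2 lay below WT unwounded replicate 2 for *Fscn1* and *Pdpn*. The log2 fold change was 0.28 (SE 0.14) for both *Msn* and *Cd44*, 0.027 (SE 0.14) for *Ezr* and -0.22 (SE 0.12) for *Rdx*. Without the KO unwounded library these were 0.21 for *Msn*, 0.12 for *Cd44*, 0.17 for *Ezr* and -0.15 for *Rdx*.

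Within the KO label the unwounded group is a single library with no spread of its own, and no test was run there. A 2-fold rule was used instead, met when both wounded libraries differed from that library at least 2-fold in the same direction on log2 CPM with a prior count of 2. *Pdpn* met it, 1 of 6 genes, against 5.69% of all genes tested that were higher. It had 3 counts in KO unwounded and 311 and 58 counts in KO wounded, depth-scaled ratios of 91.9 (95% exact interval, 31.2 to 448) and 18.3 (5.95 to 91.2). *Fscn1* was 1.96 and 0.69 higher on the log2 scale in the KO wounded replicates, so that replicate 2 missed the rule. *Msn* differed by 0.55 and 0.22, *Cd44* by 0.70 and 0.38, *Ezr* by -0.092 and -0.28, and *Rdx* by -0.35 and -0.30.

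Whether the wound response differed between genotypes was tested directly, as the KO response minus the WT response. The KO unwounded arm is a single library, so the spread in this test comes from the other groups. None of the 6 genes passed with edgeR, beside 26 of all genes (0.185%). The count over all genes was 203 of 16280 without a filter on low counts and 78 with a replicate block. It was 1 of 11127 with at least 10 counts in every library, and it also moved with the library left out. No member that could be tested passed in any of these fits. These 26 include *Xist* and the Y-linked *Ddx3y*, *Eif2s3y*, *Kdm5d* and *Uty*, at which the KO unwounded library stands apart. There were 951 genes at an unadjusted P under 0.05, none of them a member, and 85 by DESeq2. The log2 difference of responses was 2.70 (SE 1.47, adjusted p = 0.790) for *Pdpn*, 0.78 (SE 0.52) for *Fscn1*, 0.43 (SE 0.24) for *Cd44*, 0.19 (SE 0.27) for *Msn*, -0.17 (SE 0.25) for *Rdx* and -0.36 (SE 0.27) for *Ezr*. Leaving out single libraries moved *Pdpn* from 1.04 without KO wounded replicate 1 to 3.97 without WT wounded replicate 2. *Fscn1* moved from 0.015 without KO wounded replicate 1 to 1.28 without KO wounded replicate 2. The ranges were 0.27 to 0.59 for *Cd44*, 0.021 to 0.35 for *Msn*, -0.28 to -0.061 for *Rdx* and -0.63 to -0.13 for *Ezr*. Each of these rests on the KO unwounded library, without which this difference could not be fitted.

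In these libraries the balance among the ERM genes differed between genotype labels. Of their summed CPM per kilobase, *Ezr* made up 63.4% and 58.8% in WT unwounded, 65.8% and 59.6% in WT wounded, 73.3% in KO unwounded, and 69.5% and 69.4% in KO wounded. The *Msn* share was 23.9% and 26.9%, 23.4% and 29.3%, 13.6%, and 20.1% and 18.3% in the same order. Both shares separated the KO from the WT libraries without overlap, with or without the KO unwounded library. They are parts of the same sum and so not separate results. How often other genes split the labels this way is not given here. *Rdx* held 10.4% to 14.3%, with no such split. The ratio of *Msn* to *Ezr* counts was 0.432 to 0.597 in the WT libraries and 0.225 to 0.352 in the KO libraries. This ratio was chosen after the values were seen, and neither it nor the shares have a test. The part of the sex-linked difference in this balance was not tested.

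Across the 7 libraries, *Fscn1* and *Pdpn* varied together, and so did *Msn* and *Cd44*. These correlations of log2 CPM (prior count 2, with TMM factors) are descriptions over libraries that share groups, and 15 pairs were computed. Where the 2 libraries farthest from the median were left out, the median was that of 1 gene of the pair. That gene was the first in the order *Fscn1*, *Pdpn*, *Ezr*, *Msn*, *Rdx*, *Cd44*. The libraries left out therefore differ between pairs, with KO unwounded always among them. Pearson's r was 0.94 for *Fscn1* and *Pdpn* (Spearman's rho 0.96, and 1 without TMM factors), 0.82 without the 2 libraries farthest from the median and 0.88 without the KO unwounded library. Among all genes tested, *Pdpn* had the 28th highest r with *Fscn1*, and 3.12% of genes had an r over 0.8 with *Fscn1*. For *Msn* and *Cd44*, r was 0.95 (rho 1, and 0.96 without TMM factors), and it was 0.95 also without the 2 farthest libraries or without KO unwounded. *Cd44* had the 11th highest r with *Msn* of all genes tested.

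*Rdx* ran the other way. Its r was -0.90 with *Fscn1* (rho -0.89) and -0.90 with *Pdpn* (rho -0.96), with -0.87 and -0.72 without the 2 farthest libraries and -0.79 and -0.74 without KO unwounded. With *Msn* and *Cd44* its r was -0.58 and -0.71 (rho -0.64 for both). Those values depended on the libraries, at 0.33 and -0.98 without the 2 farthest and -0.050 and -0.085 without KO unwounded. Within each of the 3 replicate pairs, the library higher in *Fscn1* was also higher in *Pdpn* and lower in *Rdx*. The links between the 2 pairs depended on which libraries were included. *Pdpn* and *Msn* had an r of 0.81 (rho 0.61), which was 0.15 without the 2 farthest libraries and 0.57 without KO unwounded. *Pdpn* and *Cd44* had an r of 0.87 (rho 0.61), which was 0.40 and 0.62 on the same terms, so the strength of both relations rests on those libraries. *Fscn1* had an r of 0.74 with *Msn* and 0.82 with *Cd44* (rho 0.50 for both), with 0.82 and 0.95 without the 2 farthest libraries and 0.47 and 0.60 without KO unwounded. *Ezr* had an r between -0.42 and 0.49 with the other members, between -0.47 and 0.46 without the 2 farthest libraries, and between -0.054 and 0.18 without KO unwounded.

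**Figure D2:**
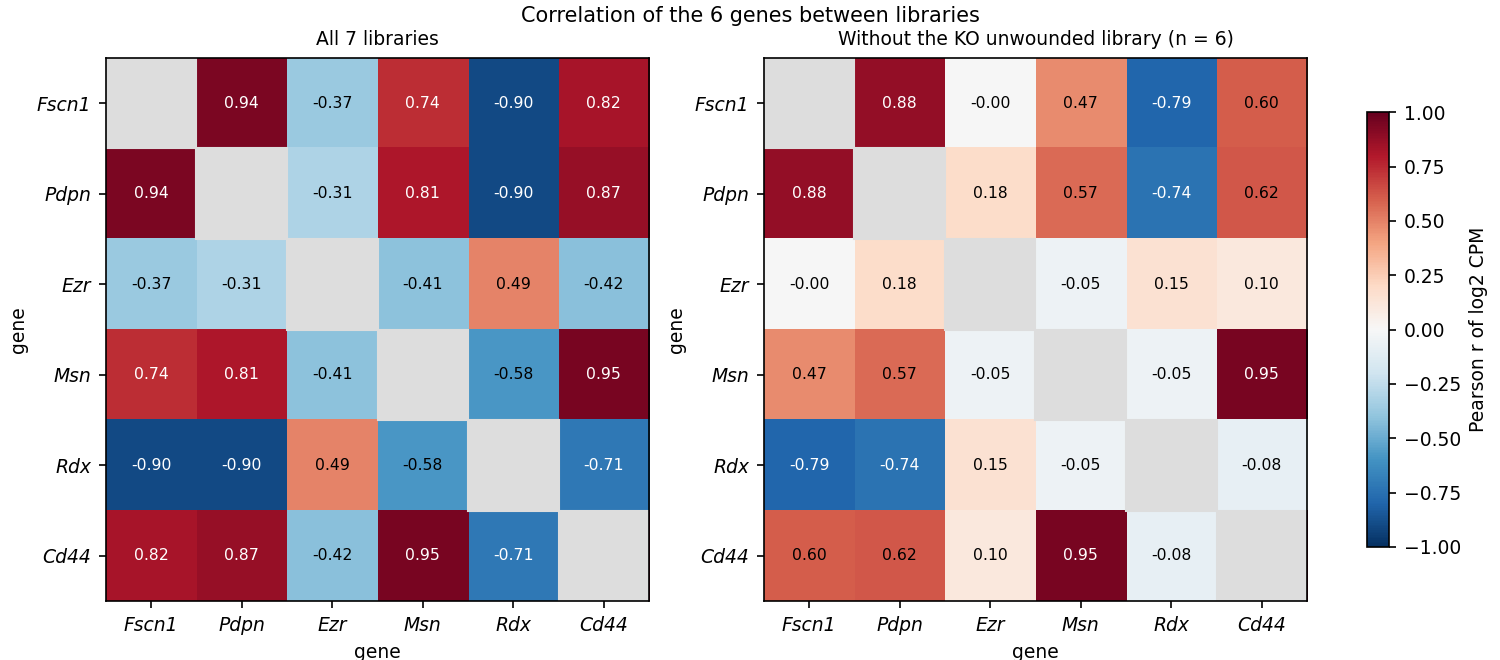
Pearson's r of log2 CPM between each pair of the 6 genes over all 7 libraries (left) and without the KO unwounded library (right, n = 6); the color scale runs from -1 to 1. *Msn* and *Cd44* keep an r of 0.95 in both panels, and *Rdx* with *Cd44* moves from -0.71 to -0.085.

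Genes most like each member were ranked by r over the 7 libraries among 8458 genes with a mean of at least 10 CPM. For *Pdpn* they were *Tubb6*, a beta-tubulin (r = 0.99), and *Slc16a3*, a lactate transporter (r = 0.98), both in the same library order as *Pdpn* (rho 1 for both). *Tubb6* had 55.5 and 61.8 CPM in WT unwounded, 86.4 and 148 CPM in WT wounded, 30.2 CPM in KO unwounded, and 97.2 and 60.9 CPM in KO wounded. For *Fscn1* they were *Asxl2* (r = 0.99, rho 1) and *Dlst* (r = 0.98, rho 0.93). *Msn* was most like *Ndufa9* (r = 0.98, rho 0.96) and *Arpc5* (r = 0.97, rho 0.93), the latter a subunit of the actin-nucleating Arp2/3 complex. *Rdx* was most like *Gsn* (r = 0.98, rho 0.71), which encodes the actin-severing protein gelsolin, and *Tbc1d5* (r = 0.98, rho 0.89). *Ezr* was most like *Sowahc* and *Klf9* (r = 0.98 for both, rho 1 and 0.96), and *Cd44* most like *Camkk2* and *Scd2* (r = 0.97 for both, rho 0.96 and 0.79). Without KO unwounded, r was 0.90 and 0.89 for the *Cd44* pair, 0.97 for each of the *Rdx* pair, and 0.95 to 0.99 for the others. All of these genes were picked for a high r among 8458, so high values follow from the choice. The values without KO unwounded come from libraries used to pick them and are not a separate check. *Gsn* peaked in KO unwounded at 1461 CPM, as *Rdx* did, against 689 to 1068 CPM elsewhere.

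Other genes of the same machinery were followed as 6 lists of 78 genes, of which 71 were tested. None passed edgeR's test in either direction in WT wounding, in KO against WT wounded or in all wounded against all unwounded, and none is counted as changed. At an unadjusted P under 0.05, WT wounding had 5 higher and 2 lower, KO against WT wounded 1 and 1, and all wounded against all unwounded 10 and 2. That is 7, 2 and 12 of 71 genes, against 4.84%, 4.04% and 6.61% of all genes tested. Median log2 differences were 0.072, -0.022 and 0.067 over the lists, against 0.0034, -0.0092 and 0.013 over all genes tested. The median in WT wounding was 0.078 for filopodia and actin bundling, 0.049 for ERM regulators and scaffolds, 0.084 for ERM-linked membrane proteins, 0.15 for hyaluronan and CD44 handling, -0.024 for podoplanin partners, and 0.14 for adherens junctions and repressors of E-cadherin.

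Among filopodial genes, *Enah*, which promotes filament elongation, had 134 and 187 CPM in WT unwounded, 195 and 300.5 CPM in WT wounded, 81.9 CPM in KO unwounded, and 211 and 128 CPM in KO wounded, the library order of *Fscn1* within WT. Its log2 difference in WT wounding was 0.65 (SE 0.25, adjusted p = 0.895). The crosslinker *Actn1* differed by 0.44 (SE 0.17) in WT wounding and by -0.74 (SE 0.17, adjusted p = 0.784) in KO against WT wounded. All 3 KO libraries, at 147 to 258 CPM, lay below all 4 WT libraries, at 286 to 456 CPM, and did so with TMM factors too. The share of all genes that split this way is not given here, and *Actn1* was named by a rule that asks for no overlap within a comparison. The most abundant gene of that list, *Actn4*, differed by 0.014 and -0.094 in the 2 comparisons, and *Baiap2* by 0.33 (SE 0.19) in KO against WT wounded.

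Of the ERM regulators, the kinase gene *Slk* was the most abundant and differed by 0.049 and -0.069. *Epb41l5* differed by 0.62 (SE 0.28) and *Prkca* by 0.36 (SE 0.29) in WT wounding, and *Rock2* by -0.18 (SE 0.17) and *Prkca* by -0.022 in KO against WT wounded. Among membrane partners, *Cd34* was lower in every wounded library, at 19.9 to 27.9 CPM against 34.9 to 63.3 CPM unwounded (WT wounding -0.74, SE 0.26, adjusted p = 0.828). The most abundant, *Sdc4*, differed by -0.11 and 0.15, and *Egfr* by -0.19 (SE 0.16) in KO against WT wounded. Hyaluronan synthase *Has1* differed by 1.51 (SE 0.43, adjusted p = 0.559) in WT wounding and the hyaluronidase gene *Hyal1* by 0.60 (SE 0.26). *Has1* stood at 2.98 to 3.10 CPM in WT unwounded, 6.67 and 10.4 CPM in WT wounded, 8.37 CPM in KO unwounded, and 8.41 and 11.8 CPM in KO wounded.

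*Mmp14*, whose protease product can shed CD44, differed by -0.38 (SE 0.19) and *Hyal2* by -0.28 (SE 0.30) in KO against WT wounded. *Esrp1*, a splicing factor that acts on *Cd44* transcripts, differed by -0.19 and 0.16 in the 2 comparisons. The counts are per gene and say nothing of *Cd44* splice forms. The tetraspanin *Cd9*, a podoplanin partner, differed by 0.39 (SE 0.16) in KO against WT wounded. *Cd82* differed by -0.51 (SE 0.25) in WT wounding and by 0.42 (SE 0.25) in KO against WT wounded. E-cadherin, *Cdh1*, averaged 1202 CPM and differed by 0.15 (SE 0.17) and -0.21 (SE 0.17), with overlap in both comparisons. *Sox4* differed by 0.42 (SE 0.24) and *Ctnna1* by 0.13 (SE 0.16) in WT wounding.

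Marker lists were read beside these results. The summed CPM of 6 wound keratinocyte genes (*Krt6a*, *Krt6b*, *Krt16*, *Krt17*, *Itga5* and *Mmp9*) was 4469 and 5570 in WT unwounded, 6532 and 9728 in WT wounded, 2625 in KO unwounded, and 7035 and 4853 in KO wounded. On CPM without TMM factors, used for all marker sums, that is the library order of both *Fscn1* and *Pdpn* (rho 1 for each), with an r of 0.94 for *Fscn1* and 0.99 for *Pdpn*. The r values were 0.96 and 0.98 without the 2 farthest libraries and 0.87 and 0.99 without KO unwounded. For marker lists, the 2 farthest are those whose sum lay farthest from the median sum, so they differ between lists. The same sum had an r of -0.91 with *Rdx* (rho -0.96), with -0.90 and -0.81 on these terms. It had 0.81 with *Msn* and 0.85 with *Cd44* (0.055 and 0.26 without the 2 farthest, 0.56 for both without KO unwounded) and -0.44 with *Ezr* (0.19 and -0.058 on the same terms). *Krt16* was the most abundant of the list, at a mean of 2284 CPM. *Mmp9*, a matrix protease gene, passed the test in WT wounding (adjusted p = 0.0043). It had 0 counts in both WT unwounded libraries, 8.89 and 38.9 CPM in WT wounded, 2.37 CPM in KO unwounded, and 10.4 and 3.29 CPM in KO wounded. The part that the share of such cells plays in the members' values was not tested.

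Basal keratinocyte genes (6, led by *Krt14* at 15550 CPM) summed to 30890 to 44750 CPM. The 5 suprabasal genes counted, led by *Krt1* at 3063 CPM, summed to 5773 and 6449 CPM in WT unwounded, 3275 and 4909 CPM in WT wounded, 8711 CPM in KO unwounded, and 6160 and 7735 CPM in KO wounded. That sum ran against *Msn* and *Cd44*, with an r of -0.76 and -0.74 (rho -0.86 and -0.89). The r values were -0.97 and -0.98 without the 2 farthest libraries and -0.63 and -0.68 without KO unwounded. Its part in those genes' values was not tested. The 8 hair follicle genes, led by *Postn* at 1029 CPM, summed to 1969 and 2132 CPM in WT unwounded, 1980 and 1598 CPM in WT wounded, 1901 CPM in KO unwounded, and 1299 and 1385 CPM in KO wounded. *Cd34*, given above among membrane partners, is also on this list. *Lhx2* and *Lgr5* were likewise lower in every wounded library (all wounded against all unwounded, -0.90 and -0.75), and are named after their values were seen. Others on the list went both ways in that comparison, *Sox9* at -0.37 and *Postn* at -0.20, but *Krt75* at 0.99, *Krt25* at 3.73 and *Krt71* at 0.18. The share of all genes lower in every wounded library is not given here. The part of follicle cells in the *Cd34* values was not tested. At an unadjusted P under 0.05, the wound keratinocyte list had 5 of 6 genes higher in WT wounding, 3 lower in KO against WT wounded and 5 higher in all wounded against all unwounded. The suprabasal list had 3 of 5 lower, 3 higher and 3 lower in the same order. The follicle list had 1 higher and 2 lower of 8, 3 lower, and 4 lower, and the basal list none. The shares of all genes tested were 4.84%, 4.04% and 6.61%.

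Podoplanin also marks lymphatic endothelium, which the sort should remove. Of the 5 lymphatic genes, *Ccl21a* had 0 counts in every library. The list summed to 3.23 and 3.81 CPM in WT unwounded, 11.5 and 4.80 CPM in WT wounded, 1.78 CPM in KO unwounded, and 10.6 and 11.2 CPM in KO wounded, with *Lyve1* the most abundant at a mean of 2.92 CPM. *Lyve1* and *Flt4* were higher in every wounded library than in every unwounded one, and *Prox1* and *Reln* were not. That split held for 2.74% of all genes tested. Some genes of the blood endothelial, fibroblast, leukocyte and melanocyte lists had it too, so it was not particular to lymphatic genes. *Lyve1* was about level in WT wounded replicates 1 and 2, at 4.02 and 4.09 CPM (67 and 63 counts). In the same order *Flt4* had 2.34 and 0.454 CPM, *Reln* 2.34 and 0.259 CPM and *Prox1* 47 and 0 counts, whereas *Pdpn* was higher in replicate 2. Whether lymphatic cells contribute to *Pdpn* was not tested. Genes of blood endothelium (6, led by *Vwf* at 3.31 CPM) summed to 3.49 and 4.28 CPM in WT unwounded, 25.3 and 9.92 CPM in WT wounded, 0.889 CPM in KO unwounded, and 10.5 and 15.1 CPM in KO wounded. Mural and smooth muscle genes (6, led by *Acta2* at 4.95 CPM) summed to 1.29 and 3.93 CPM, 30.6 and 12.3 CPM, 1.11 CPM, and 3.81 and 8.96 CPM in the same order. With *Pdpn*, r was 0.80 for blood endothelium, 0.70 for mural and 0.66 for lymphatic genes (rho 0.57, 0.68 and 0.57), with 0.15, 0.61 and 0.21 without the 2 farthest libraries and 0.45, 0.53 and 0.25 without KO unwounded.

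Fibroblasts express *Pdpn* and *Cd44* too. The 6 fibroblast genes, led by *Col3a1* at 8.27 CPM, summed to 28.7 and 14.5 CPM in WT unwounded, 19.6 and 46.6 CPM in WT wounded, 11.0 CPM in KO unwounded, and 25.6 and 37.8 CPM in KO wounded. That sum had an r of 0.68 with *Pdpn* (rho 0.46), with -0.24 without the 2 farthest libraries and 0.34 without KO unwounded. With *Cd44* the r was 0.58 (rho 0.61), with -0.53 and -0.00086 on the same terms. The 6 leukocyte genes, led by *Cd68* at 2.46 CPM, summed to 2.07 to 6.75 CPM with *Cd3e* at 0 in every library. The 6 dendritic and Langerhans cell genes, led by *Cd74* at 12.8 CPM, summed to 9.04 to 45.9 CPM, with *Ccr7*, *Itgax* and *Cd86* at 0 in every library. The 4 melanocyte genes, led by *Dct* at 2.2 CPM, summed to 0.952 to 7.15 CPM, and all 4 erythroid genes had 0 counts throughout. With *Pdpn*, r was 0.72 for dendritic and Langerhans cell genes, 0.69 for leukocyte and 0.63 for melanocyte genes (rho 0.68, 0.68 and 0.39). These were 0.60, 0.41 and 0.30 without the 2 farthest libraries and 0.68, 0.45 and 0.39 without KO unwounded. At an unadjusted P under 0.05 in WT wounding, 3 of 6 blood endothelial, 2 of 4 mural, 1 of 4 lymphatic, 1 of 5 fibroblast, 1 of 5 leukocyte, 1 of 2 dendritic and 1 of 3 melanocyte genes tested were higher, and 2 mural genes were lower in KO against WT wounded. In all wounded against all unwounded, 4, 2, 2, 3, 1, 1 and 1 of these genes were higher in the same order. The shares of all genes tested are those given for the keratinocyte lists. No gene of these lists passed the test in WT wounding or KO against WT wounded, apart from *Mmp9*. Their part in the members' values was not tested.

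Accessible regions gave a second readout of the same genes. The lists held 10769 regions in WT unwounded, 36872 in WT wounded, 29364 in KO unwounded and 22474 in KO wounded, so a gene was more likely to have a region in the longer lists. In or within 5 kb of the 6 genes, 4 genes had a region in WT unwounded (against 34.8% of 21951 protein-coding genes), 6 in WT wounded (62.3%), 6 in KO unwounded (58.5%) and 6 in KO wounded (49.2%). Of the genes that were also tested in the RNA-seq, 50.7%, 84.6%, 81.0% and 68.7% had a region. Near the members there were 6, 23, 18 and 11 regions. With each list shortened to its 10769 strongest regions, the numbers of genes were 4, 6, 4 and 3, and of regions 6, 6, 6 and 4. At that length 34.8%, 31.5%, 32.9% and 31.8% of protein-coding genes had a region, and 50.7%, 45.1%, 47.4% and 45.3% of those tested. Each condition is a single list, so differences between conditions have no replicate check.

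Merged over conditions, the regions made up 27 loci. By their centres, 22 lay in introns, 2 in exon 1, 2 upstream of the gene and 1 just before an inner annotated start of *Rdx*. In WT unwounded, KO unwounded and KO wounded, the region at that *Rdx* locus was itself centred in exon 1 of the main annotated transcript. A *Cd44* locus centred in intron 1 also spans the *Cd44* start. The 4 lists shared 5 loci, and 10 loci were in 1 list alone. *Fscn1* (chr5:142960343-142973185, plus strand, mm10) and *Ezr* (chr17:6738041-6782784, minus strand) had no region in WT unwounded. *Pdpn* (chr4:143267431-143299564, minus strand), *Msn* (chrX:96096042-96168552, plus strand), *Rdx* (chr9:52047173-52088735, plus strand) and *Cd44* (chr2:102811141-102901665, minus strand) had at least 1 region in all 4 lists.

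**Figure D3:**
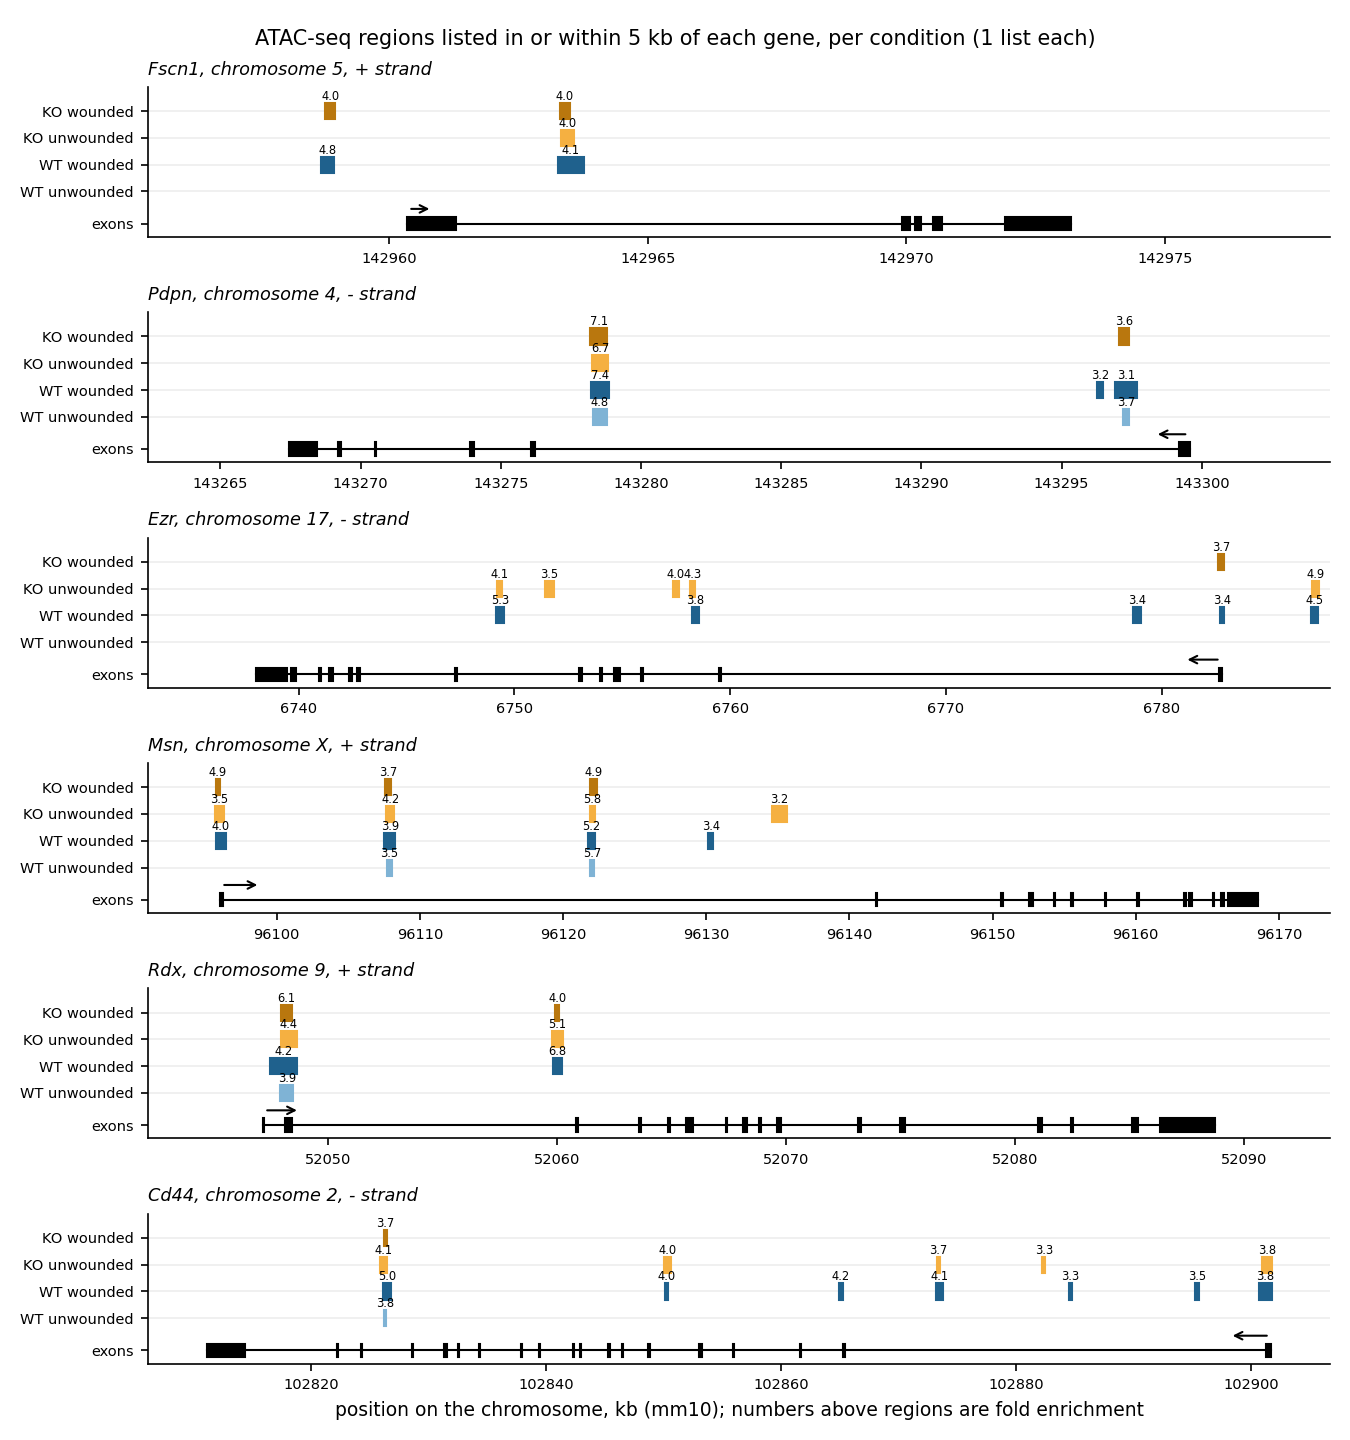
Accessible regions in or within 5 kb of each gene, 1 line per condition, drawn to scale on mm10 coordinates in kb with exons as black boxes and an arrow for the direction of transcription; the number above a region is its fold enrichment over the local background. *Fscn1* and *Ezr* have no region in WT unwounded, and the *Pdpn* region far into intron 1 is in all 4 lists, at 4.82 to 7.44.

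*Fscn1* had an upstream region 1.53 kb before its start (chr5:142958681-142958951) in both wounded lists, with a fold enrichment over local background of 4.81 in WT wounded and 3.98 in KO wounded. A region in intron 1 (chr5:142963258-142963771) had 4.13 in WT wounded, 4.02 in KO unwounded and 4.01 in KO wounded. The upstream region was thus seen only after wounding in these lists, under either label, and was not among the 10769 strongest regions in KO wounded. Of the 3 *Pdpn* loci, all in intron 1, the region at chr4:143278197-143278849 had 4.82 in WT unwounded, 7.44 in WT wounded, 6.72 in KO unwounded and 7.10 in KO wounded, the highest near any member in each list but WT unwounded. A region 2.27 kb from the *Pdpn* start was in 3 lists at 3.10 to 3.71.

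Regions over or just upstream of a start were in all 4 lists for *Rdx* (3.90, 4.22, 4.41 and 6.13), in 3 for *Msn* (4.04 in WT wounded, 3.52 in KO unwounded and 4.89 in KO wounded, the last ending before the start), in the 2 wounded lists for *Ezr* (3.41 and 3.66), and in WT wounded and KO unwounded for *Cd44* (3.78 and 3.82). *Rdx* was the only member with a start region in every list. *Fscn1* and *Pdpn* had none within 1 kb of a start in any list. *Msn* also had 2 intron regions in all 4 lists, one at chrX:96121758-96122351 with 5.67 in WT unwounded, 5.18 in WT wounded, 5.84 in KO unwounded and 4.89 in KO wounded. *Cd44* had a region in intron 16 in all 4 lists, at 3.83, 5.05, 4.12 and 3.68. In intron 1 of *Rdx*, 12.9 kb from the outermost annotated start, a region had 6.80 in WT wounded, 5.09 in KO unwounded and 4.0 in KO wounded.

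Sequences are shown for regions that were in several lists near the genes that varied together, as the stretch those lists shared (plus strand, mm10), or its central 300 bases for *Pdpn*. Capitals mark a match to the grainyhead core, searched as AACCGGTT, AACCTGTT, AACTGGTT or AACTTGTT on both strands, or to the AP-1 motif TGANTCA, and a match is a description of letters, not of binding. The *Fscn1* upstream stretch holds AACAGGTT, the reverse complement of AACCTGTT. The *Fscn1* and *Pdpn* intron stretches and that of *Cd44* hold an AP-1 match, and the *Msn* intron stretch neither.
Fscn1 upstream, chr5:142958766-142958931: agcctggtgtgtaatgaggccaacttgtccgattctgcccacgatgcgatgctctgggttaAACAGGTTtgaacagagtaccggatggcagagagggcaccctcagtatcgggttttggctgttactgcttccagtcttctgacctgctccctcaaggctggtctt
Fscn1 intron 1, chr5:142963327-142963491: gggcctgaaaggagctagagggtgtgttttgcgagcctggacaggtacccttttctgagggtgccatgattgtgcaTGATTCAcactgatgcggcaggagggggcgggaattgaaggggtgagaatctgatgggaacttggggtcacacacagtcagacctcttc
Pdpn intron 1, chr4:143278384-143278683: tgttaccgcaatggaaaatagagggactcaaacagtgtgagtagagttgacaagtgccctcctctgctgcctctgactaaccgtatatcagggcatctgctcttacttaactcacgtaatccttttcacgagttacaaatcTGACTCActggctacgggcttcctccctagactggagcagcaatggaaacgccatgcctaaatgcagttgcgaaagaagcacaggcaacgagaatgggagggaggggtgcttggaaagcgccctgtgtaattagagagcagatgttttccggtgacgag
Msn intron 1, chrX:96121890-96122128: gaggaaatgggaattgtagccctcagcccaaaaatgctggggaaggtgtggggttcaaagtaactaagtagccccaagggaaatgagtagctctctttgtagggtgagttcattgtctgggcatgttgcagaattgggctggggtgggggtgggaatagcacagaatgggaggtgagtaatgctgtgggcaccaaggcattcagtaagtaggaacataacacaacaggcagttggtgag
Cd44 intron 16, chr2:102826156-102826359: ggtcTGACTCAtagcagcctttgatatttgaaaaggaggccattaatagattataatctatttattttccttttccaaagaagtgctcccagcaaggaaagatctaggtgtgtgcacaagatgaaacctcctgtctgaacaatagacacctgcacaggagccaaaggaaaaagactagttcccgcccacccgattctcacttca

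Over the central 300 bases of the 27 loci, 3 held the grainyhead core and 9 an AP-1 match. Among all regions of the 4 lists, in the order given above, 3.98%, 4.82%, 4.54% and 4.55% held the core and 24.4%, 27.7%, 27.3% and 27.8% an AP-1 match, read in the same way. The loci with the core were the *Fscn1* upstream region, a *Cd44* intron 16 region (AACAAGTT, outside the shared stretch) and an *Ezr* intron 6 region (AACCTGTT) seen in KO unwounded alone. The *Fscn1* upstream region and its match were present in the KO wounded list as well as in WT wounded.

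RefSeq promoter windows (GRCm38.p6, 250 bases before to 50 after the start) were matched for all 6 genes, 7 windows in all with 2 for *Rdx*. Of 32851 windows in the genome, 2.74% held the grainyhead core and 7.81% an AP-1 match. The windows of *Fscn1* and *Pdpn*, shown because these genes varied together, held neither motif, overlapped no region, and differed in composition, with 61.7% G and C and 21 CpG in *Fscn1* and 48.7% and 7 CpG in *Pdpn*. The *Ezr* window, which a region overlapped in both wounded lists, held an AP-1 match (68.0% G and C, 38 CpG). The upstream *Rdx* window held AACCTGTT and overlapped no region, and the *Msn* and *Cd44* windows held neither motif. Sequences are on the strand of the gene, and capitals mark the AP-1 match.
Fscn1 promoter, chr5:142960105-142960404: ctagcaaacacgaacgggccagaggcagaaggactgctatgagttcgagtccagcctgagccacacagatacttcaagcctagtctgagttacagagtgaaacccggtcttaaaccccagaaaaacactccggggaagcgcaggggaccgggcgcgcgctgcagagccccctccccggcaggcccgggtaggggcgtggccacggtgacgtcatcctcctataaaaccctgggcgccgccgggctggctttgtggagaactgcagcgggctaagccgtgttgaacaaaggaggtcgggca
Pdpn promoter, chr4:143299515-143299814: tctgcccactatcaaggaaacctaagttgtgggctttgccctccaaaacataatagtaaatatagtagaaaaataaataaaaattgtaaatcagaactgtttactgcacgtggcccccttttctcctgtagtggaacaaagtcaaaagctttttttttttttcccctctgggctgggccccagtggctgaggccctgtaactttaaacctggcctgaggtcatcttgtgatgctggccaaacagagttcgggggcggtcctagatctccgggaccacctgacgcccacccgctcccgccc
Ezr promoter, chr17:6782731-6783030: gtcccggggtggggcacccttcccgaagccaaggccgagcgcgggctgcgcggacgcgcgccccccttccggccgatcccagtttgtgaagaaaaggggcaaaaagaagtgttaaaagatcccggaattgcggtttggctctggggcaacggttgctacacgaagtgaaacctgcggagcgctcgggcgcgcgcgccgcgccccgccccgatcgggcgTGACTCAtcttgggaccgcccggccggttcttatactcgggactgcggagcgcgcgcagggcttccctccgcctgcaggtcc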

How the data were processed

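For RNA-seq, the authors deposited whole-number counts per gene symbol, from single reads of 100 bases. The study's methods name Kallisto with mm10, while the tables end with tallies of ambiguous reads (1.34% to 1.45%) and reads not aligned uniquely (3.46% to 4.74%), which were left out; which step made the counts is not known here. Genes were kept by edgeR's filterByExpr (14045 of 24421), normalized by TMM and fitted once over 7 libraries in 4 groups with a two-sided quasi-likelihood test in edgeR, and p-values were adjusted over all genes tested by the Benjamini-Hochberg method. The comparison of all wounded with all unwounded libraries used an additive fit of wounding and genotype. The biological coefficient of variation was 31.6%. The statistics step was tested on simulated data.

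For ATAC-seq, the authors deposited, per region, a fold enrichment, which is a ratio to the local background. They also deposited −log10 p and −log10 q values and a score, which was not used. The methods name bowtie2 and MACS2, and the region names say that no control library was used. Genes and introns are from GENCODE vM21. Exon lengths are the union of exons.

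The members and lists were chosen with earlier results of these data known. Named list genes are the most abundant of each list, up to 2 per comparison with the largest log2 difference, no overlap and a mean of at least 5 CPM, and any with an adjusted p under 0.05; some further marker genes and sex-linked genes were named after their values were seen. *Flg*, of the suprabasal list, was not analysed here. Alternatives were RLE normalization, DESeq2, no filter, a minimum of 10 counts per library, a replicate block, only the 4 libraries compared, leaving out each library, other fold rules, and other region distances and thresholds. Leaving out genes of chromosomes X and Y, correlations of members and look-alikes without KO unwounded, correlations of members without TMM factors and levels with them were chosen after seeing the data. R 4.3.3, edgeR 4.0.16, DESeq2 1.42.0, Python 3.11.15 and pysam 0.24.0 were used.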

Additional observations from a re-analysis of the deposited data

How the results depend on the processing

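The 24 log2 differences of the 6 genes in 4 comparisons were refitted 259 times in all. In 245 fits the direction and the side of the threshold held, 21 of the 24 kept their direction in every fit, and 18 kept both throughout. In WT wounding, 1 of the 6 genes passed without a filter on low counts (*Pdpn*, 3.06), beside 96 of 16280 genes tested. Leaving out each library gave 1.79 to 3.71 for *Pdpn*, the highest without WT wounded replicate 1. *Ezr* was -0.056 without WT unwounded replicate 2, the lowest of a range up to 0.44. In KO against WT wounded, leaving out each library gave *Fscn1* from -1.10 to 0.16, reversed without KO wounded replicate 2.

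In all wounded against all unwounded, 2 of the 6 genes, *Pdpn* and *Fscn1*, passed with DESeq2 (3.91 and 0.98), beside 126 of 14045 genes tested. Both also passed without a filter (3.60 and 0.97), beside 305 of 16280, and without WT unwounded replicate 2 (4.13 and 1.30), beside 56 of 13867. Without WT wounded replicate 1 only *Pdpn* passed, at 4.24, beside 119 of 13814. Leaving out each library gave 0 to 2 genes, 0.68 to 1.30 for *Fscn1*, 3.06 to 4.24 for *Pdpn* and -0.12 to 0.17 for *Ezr*, which was -0.12 without WT unwounded replicate 2 and -0.059 without WT wounded replicate 1. With the replicate block *Ezr* was -0.014. The block moved no other direction and no call. The replicate number of the KO unwounded library is from its title and uncertain, and blocked values depend on it. Under either number the block joins it to a KO wounded library that differs from it at *Xist* and the Y-linked genes. Replicate differences correlated at 0.154 between WT unwounded and WT wounded, and at -0.0386 and -0.0109 between KO wounded and WT wounded or WT unwounded. The numbers thus show no pairing across genotypes, and whether they pair the WT libraries is not known. The cause of these changes was not tested.

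For the 2-fold rule in KO, 2 members passed at 1.5-fold. The share of all genes at 1.5-fold is not given here, so that count has no background beside it. Without KO wounded replicate 2, *Fscn1* differed by 1.96 and *Pdpn* by 5.90 on the log2 scale. Without KO wounded replicate 1 they differed by 0.69 and 3.53. Counting regions only within 1 kb of a start left 1 gene in WT unwounded, 4 in WT wounded, 3 in KO unwounded and 3 in KO wounded, against 26.2%, 48.5%, 45.1% and 38.3% of protein-coding genes (40.1%, 71.7%, 67.5% and 57.3% of those tested), as the rule takes in less sequence. A fold enrichment of at least 4 left 2, 6, 6 and 4 genes in the same order, against 23.9%, 49.6%, 40.7% and 40.2% of protein-coding genes. Of those tested, 35.0%, 69.3%, 58.1% and 57.0% had such a region. A q of 0.01 or less left 4, 6, 6 and 5 genes, against 29.9%, 58.1%, 49.4% and 44.8% of protein-coding genes. Equal list lengths left 3 in KO wounded, against 31.8%. At least 10 counts in every library gave no value for *Pdpn*, which had 3 counts in KO unwounded.

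With 2 libraries or fewer per group, a left-out fit leaves a lone library that is assumed to vary like the other groups. Wounding and genotype effects on *Pdpn* rest on 3 to 760 counts per library. The KO unwounded group is 1 library that also stands apart at sex-linked genes, so that difference and the genotype label cannot be told apart in that group. Region lists come from 1 sample per condition, and differ in length. Genes that overlap members are *Sytl3* at the end of *Ezr* and small RNA genes inside *Msn* and *Cd44*.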
